A study of Mus musculus with 2 samples.

Results

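Among the 5827 cell barcodes of septal explants from mouse embryos, 260 formed a set of Tbr1+ glutamatergic neurons, out of 20110 barcodes in the 2 libraries of the series. They were selected on measured values. A barcode was kept when mitochondrial transcripts made under 4% of its unique molecular identifiers (UMIs, each of which counts 1 captured transcript molecule), which left 5649. N was the sum of UMIs of the neuronal genes Tubb3, Stmn2, Dcx, Elavl3, Gap43 and Mapt, and A that of the apical progenitor (AP) genes Sox2, Hes1, Hes5, Vim, Nes, Fabp7 and Slc1a3. A cell with N above A was taken as a cell on the neuronal side, and there were 1809 of these. Of them, the 260 also had at least 2 UMIs of Tbr1, at most 1 of Eomes and 0 of Trp73, Gad1 and Gad2. The levels of these 18 genes follow from the selection and are given as a description only. The working name of the set was pallial glutamatergic neurons, but its pallial factors were unevenly spread over the cells (described further on), so that the cells are called Tbr1+ neurons here.

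Single cell RNA sequencing (scRNAseq) had been made from explants encompassing the septum of 8 E11.5 PGKCre;Rosa26YFP embryos from 2 litters and 4 E12.5 Dbx1Cre;Rosa26tdTomato embryos from 2 litters, all on the C57BL/6J strain and pooled in 1 library of about 10000 input cells. The labels call this pool wild-type, although both genotypes carry a Cre allele and a reporter. PGKCre is broadly active, so that YFP marks the E11.5 embryos broadly, whereas tdTomato marks E12.5 cells with a history of Cre from Dbx1. The other library comes from the telencephalic vesicles of 3 wild-type embryos of 2 litters, labelled E12 and described in the methods as E11.5 to E12, and about 20000 input cells. Individual embryos cannot be told apart within a library, and embryonic day, genotype, litter and dissection cannot be told apart within the septal pool. With 1 library per tissue there are no replicates, so that no significance test was made: values are summed UMIs scaled to 1000000 (CPM) with exact Poisson 95% intervals, or shares of cells with exact Clopper-Pearson 95% intervals. Both cover counting error only.

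The glutamatergic neurons of the pallium arise from APs that express Pax6, many of them through basal progenitors (BPs) that express Eomes, and they switch on the T-box transcription factor Tbr1 as they leave the cell cycle. The first of them settle in the preplate, with Cajal-Retzius cells, the Reelin-secreting neurons that express Trp73 when they come from the septum or the cortical hem. GABAergic neurons instead arise in the subpallium under the control of Dlx factors. The septum lies at the meeting point of both territories on the medial side, and Dbx1 is expressed in part of its neurons.

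The Tbr1+ neurons held 3405866 UMIs in total of the 83103280 in the library. Their median depth was 12145.5 UMIs per cell, from a lowest of 4001 to a highest of 37005, and the median was 10944 in the 1549 other N > A cells. The latter fell into 46 Tbr1- Slc17a6+ neurons, 229 Trp73+ neurons, 194 Gad+ neurons with at least 2 UMIs of Gad1 and Gad2, 645 Eomes-high cells with at least 2 Eomes UMIs, and 435 cells outside every gate. The remaining 3840 kept cells had A at or above N. Each Tbr1+ neuron held 2 to 29 Tbr1 UMIs, with a median of 9. A single barcode sequence occurred in both libraries.

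Both markers that the selection did not use were higher in the Tbr1+ neurons than in the other N > A cells. Nxph4 (ENSMUSG00000040258, minus strand of chr10:127525473-127534559 in GRCm38), which encodes a secreted neurexophilin and is a marker of subplate neurons, was at 233 (217 to 249.9) against 87.7 (83.5 to 92.04) CPM. The ratio was 2.66, with an interval of 2.44 to 2.90. Etv1 (ENSMUSG00000004151, plus strand of chr12:38779380-38870484), an ETS transcription factor of deep layer projection neurons, was at 289.8 (272 to 308) against 106 (101 to 110.4) CPM, a ratio of 2.74 with an interval of 2.54 to 2.96. Of the 260 cells, 81.9% (76.7 to 86.4%) held an Nxph4 UMI and 61.2% (54.9 to 67.1%) an Etv1 UMI. In the Gad+ neurons, which should lack Nxph4 and had a median depth of 10963 UMIs, the share with an Nxph4 UMI was 4.12% (1.80 to 7.96%). Thinning every cell to 7500 UMIs, which left out 21 of the Tbr1+ neurons, gave 70.3% and 2.69% for Nxph4. Tbr1 itself (ENSMUSG00000035033, plus strand of chr2:61802930-61814114), which the selection used, was at 751 (722 to 781).

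Compared across classes, Nxph4 and Etv1 had their highest level in the Tbr1+ neurons, and the Eomes-high cells came next with 162 (154 to 171) and 176 (167 to 185) CPM. In Trp73+ neurons, Nxph4 was at 64.8 (55.98 to 74.7) CPM and Etv1 at 93.4 (82.7 to 105) CPM, although Tbr1 was at 739.8 (709 to 772) CPM there. The intervals of Nxph4 in Trp73+ and in Tbr1- Slc17a6+ neurons overlapped, whereas Etv1 was nearly absent from the latter, with 2 UMIs in 46 cells. The vesicular glutamate transporter Slc17a6 had another order, being highest in Tbr1- Slc17a6+ neurons, whose gate requires it, then in Trp73+ neurons with 99.1 (88.1 to 111) CPM, and its intervals in these, in Tbr1+ neurons (78.4 (69.3 to 88.4) CPM) and in Eomes-high cells (71.3 (65.6 to 77.3) CPM) overlapped between neighbours. The other transporter, Slc17a7, was found as 33 UMIs in 27 of the 260 cells.

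**Figure D1:**
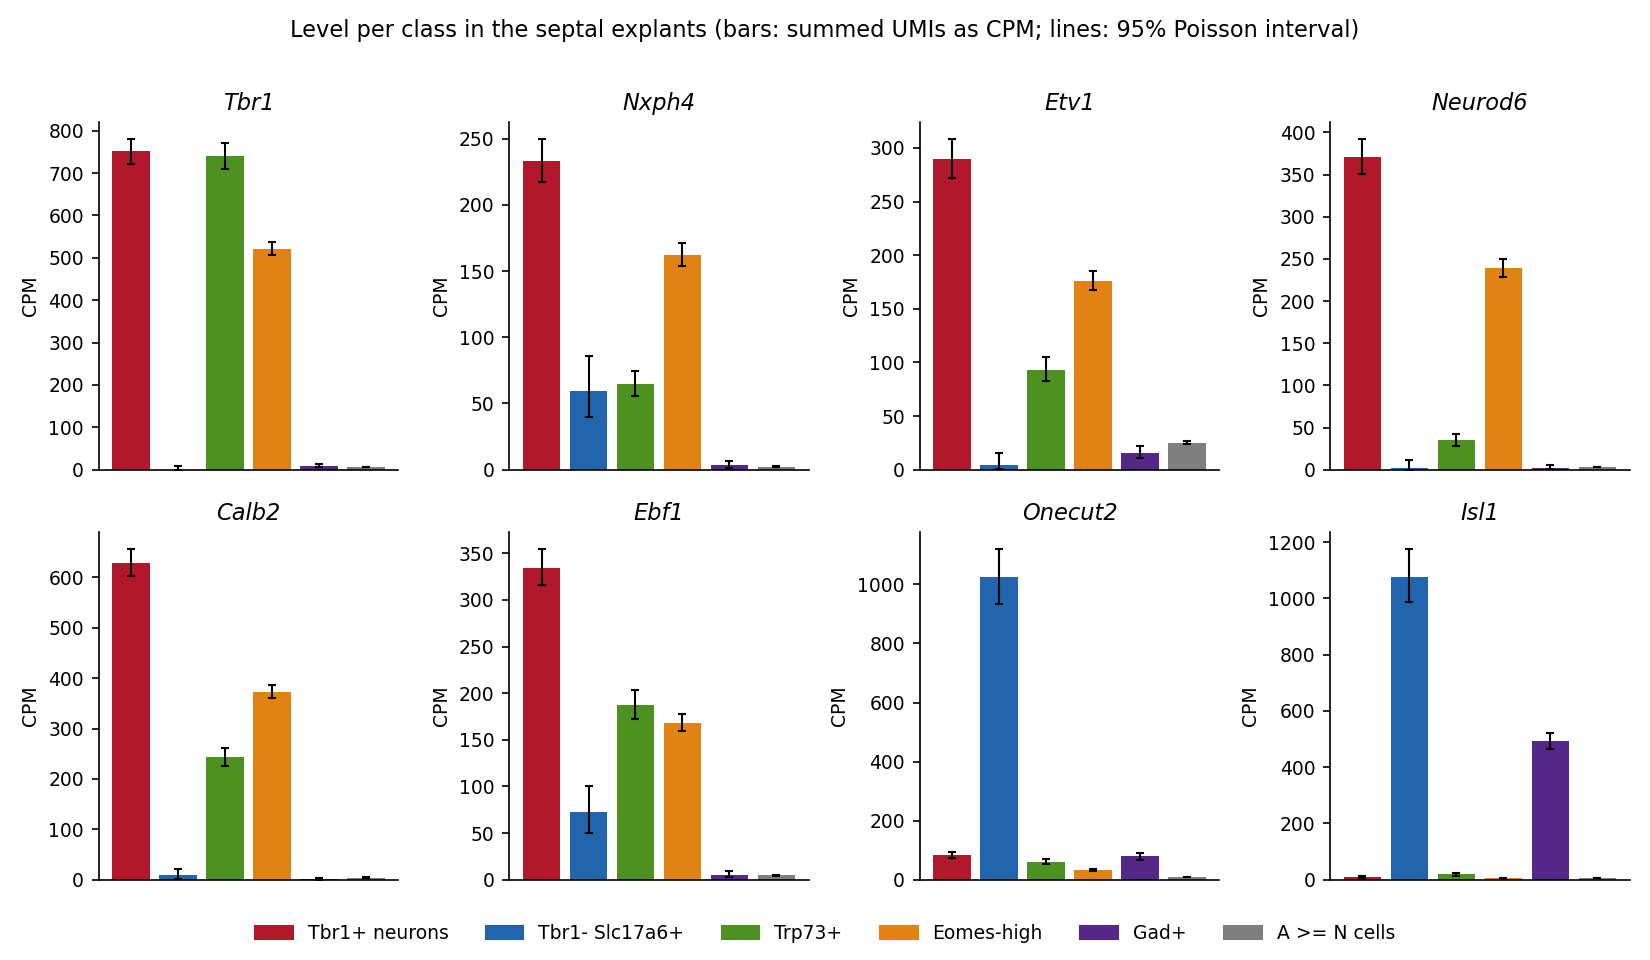
Bars give the level of 8 genes as CPM of summed UMIs in 6 classes of kept cells of the septal explants, and lines the exact Poisson 95% interval. Nxph4, Etv1, Neurod6, Calb2 and Ebf1 were highest in the 260 Tbr1+ neurons, and Onecut2 and Isl1 in the 46 Tbr1- Slc17a6+ neurons; the level of Tbr1 follows from the selection.

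The values of the cells just inside and just outside the threshold of 2 Tbr1 UMIs differed in more than Tbr1. The 19 cells with 2 Tbr1 UMIs had Nxph4 at 134 (87.6 to 196) CPM, Neurod6 at 340.4 (263 to 433) CPM and the GABAergic factor Dlx1 at 5.16 (0.131 to 28.7) CPM. The 41 cells that met all other limits but held 1 Tbr1 UMI had Nxph4 at 23.8 (11.4 to 43.7) CPM, Neurod6 at 35.7 (19.97 to 58.8) CPM and Dlx1 at 193 (153 to 239) CPM. Their median N was 41, and it was 72 in the cells with 2 Tbr1 UMIs and 148 in the 211 cells with at least 5. These last had Nxph4 at 254 (235 to 273) CPM and Dlx1 at 0.358 (0.00906 to 1.99) CPM.

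A gene was taken as higher or lower when its ratio of CPM was at least 2 in that direction and the Poisson intervals were apart, among genes whose UMIs over both sets of cells came to 50 or more. Against the other N > A cells, 388 of 10978 genes were higher in the Tbr1+ neurons (3.53%) and 565 were lower (5.15%), and the median log2 ratio over all tested genes was 0.02. Genes named here are among the 25 with the highest ratios. Lingo1, a leucine-rich repeat protein of axons, was at 50.8 against 10.01 CPM, and the AMPA receptor subunit gene Gria2 at 105 against 27.2 CPM. Others were the adhesion genes Nrcam (3.82 times higher) and Ptprd (3.24 times), the cannabinoid receptor gene Cnr1 (3.17 times), which is expressed in pallial projection neurons, and Actl6b (3.32 times), a subunit of the neuronal chromatin remodelling complex.

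Several of the 25 genes with the highest ratios encode transcription factors or secreted and signalling proteins. Tfap2e, an AP-2 family factor, was at 50.5 against 9.10 CPM (5.55 times), and was listed at 0 in both the Tbr1- Slc17a6+ and the Gad+ neurons. Neurod6, a basic helix-loop-helix (bHLH) factor of pallial glutamatergic neurons, was at 371 against 115 CPM, Mef2c, a MADS box factor, at 58.7 against 13.1 CPM, and Pcp4, a calmodulin regulator, at 237 against 49.4 CPM. Also among the 25 were Tac1, the precursor of substance P, with 40.8 against 9.64 CPM, the Nell2 gene of a secreted glycoprotein, the co-repressor gene Runx1t1, the G protein subunit gene Gng8, the phosphodiesterase gene Pde2a and Myc. Others were Rwdd3, Jph4, Ppp2r2c, Hecw1, Sez6, Dtx1, Csdc2 and Lhfp, from 3.12 (Lhfp) to 3.98 (Rwdd3) times higher. These ratios are against the pooled other cells, and 1 class could be higher. Mef2c was at 71.6 CPM in Gad+ neurons, and Gng8 at 274 CPM in Tbr1- Slc17a6+ neurons against 107 CPM in Tbr1+ neurons. The rest of the 25 were highest in the Tbr1+ neurons, although Jph4 was nearly equal in Tbr1- Slc17a6+ neurons (40.5 against 40.4 CPM).

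**Figure D2:**
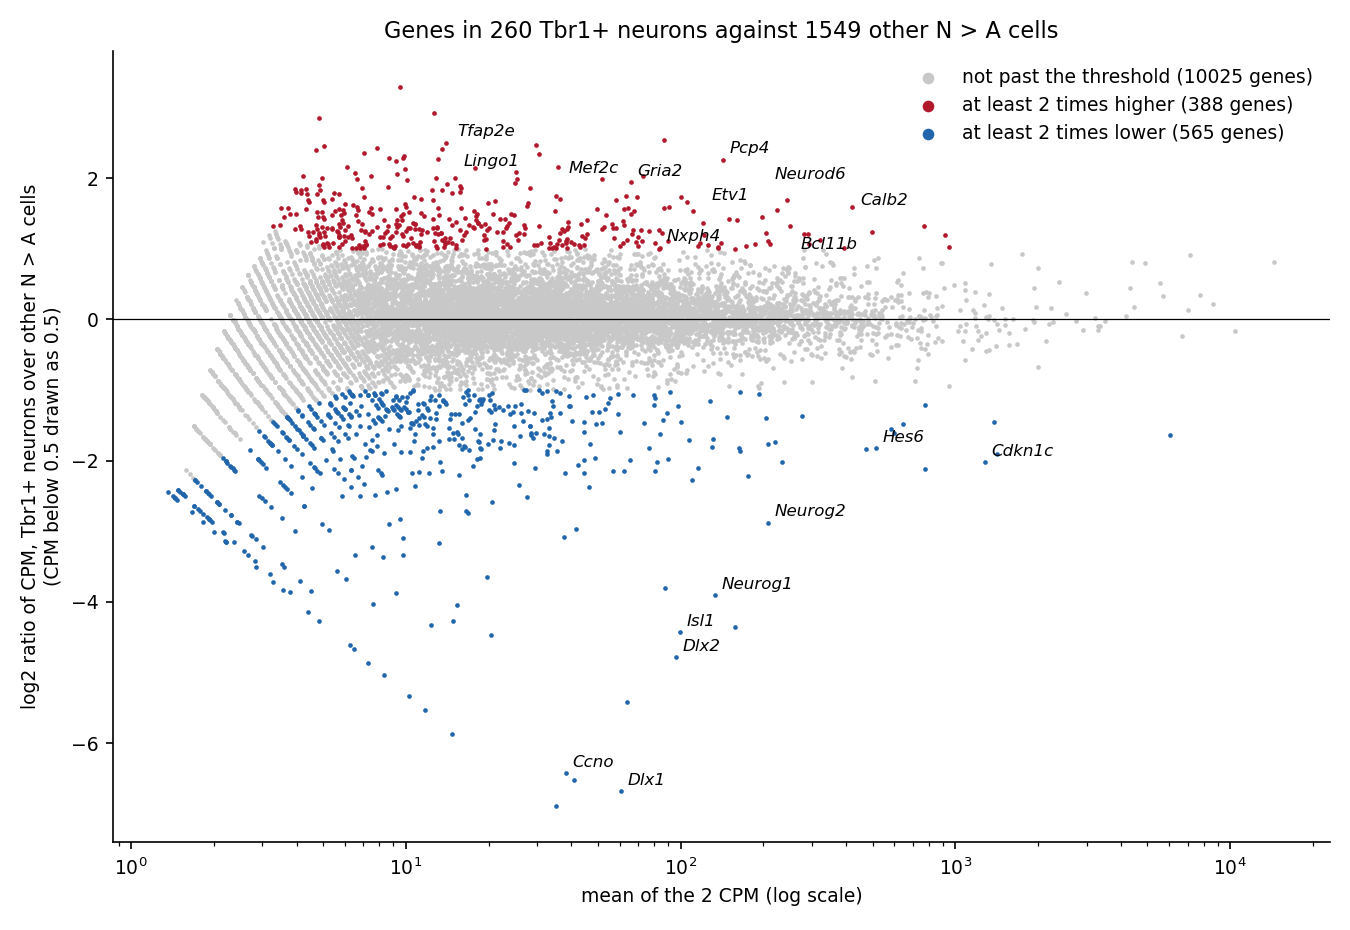
Each point is a gene tested in the 260 Tbr1+ neurons against the 1549 other N > A cells, with the mean of both CPM on a log scale across and the log2 ratio upwards; red marks the 388 genes at least 2 times higher and blue the 565 genes at least 2 times lower with intervals apart. The highest ratios lie between 2 and 4 on the log2 scale, whereas the lower side reaches beyond -6 with the Dlx genes.

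Some of these ratios were different among cells of the E11.5 embryos alone. Cells with at least 3 YFP UMIs, which mark the E11.5 embryos, numbered 117 among the Tbr1+ neurons and 857 among the other N > A cells. Within these cells, 20 of the 25 genes kept a ratio of at least 2. The exceptions were Pcp4 with 1.82, Cnr1 with 1.87, Neurod6 with 1.28, Sez6 with 1.24, and Mef2c with 0.504. The value of Mef2c rests on 9 UMIs in the Tbr1+ neurons, and its intervals overlapped, with 5.84 (2.67 to 11.1) against 11.6 (9.68 to 13.8) CPM. Tfap2e was further apart there, with a ratio of 8.58. Of all 388 higher genes, 307 had enough UMIs to be tested in the YFP cells, and 299 of these lay on the same side and 195 again passed the threshold. Over all 9947 genes tested in both, 50.6% lay on the higher side in the YFP cells and 2.79% passed as higher. All 508 of the lower genes that could be tested lay on the same side, and 358 passed, beside 49.4% and 4.69% over all genes. The YFP cells are part of the cells that gave the calls, so that these counts are not independent of them.

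Among factors known from early cortical projection neurons, of 29 tested genes, 13 were higher and 1 was lower, with a median log2 ratio of 0.79. Bcl11b, which specifies subcortically projecting neurons, was at 358 (338 to 378) against 143 (138 to 149) CPM. Neurod2, a bHLH factor related to Neurod6, was at 395 (374 to 416) against 169.9 (164 to 176) CPM, and Bhlhe22, another bHLH factor of projection neurons, at 96.01 (85.9 to 107) against 32.3 (29.8 to 34.96) CPM. Foxp2, a forkhead factor of deep layer neurons, was 2.82 times higher and the nuclear factor I genes Nfix and Nfia 2.90 and 2.12 times, whereas Nfib was at 445 (423 to 468) against 254 (247 to 261) CPM, a ratio of 1.75 below the threshold. Within the YFP cells, the ratio was 1.31 for Neurod2 and was below 1 for Nfib (0.630), Nfia (0.621) and Nfix (0.619). The gene that was lower was Lmo3, with 1.47 against 5.35 CPM. Fezf2, the regulator of corticospinal neurons, was at 128 (117 to 141) against 186 (179.6 to 192) CPM, a ratio of 0.691.

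Of the 14 markers of pallial glutamatergic neurons, 13 could be tested, and 6 were higher and 1 was lower, with a median log2 ratio of 0.81. This list is not separate from the others, since it holds Tbr1, Nxph4 and Etv1. It also shares Bcl11b, Neurod2, Bhlhe22, Nfib, Fezf2 and Lmo3 with the early projection neuron factors. A list of regional factors of the pallium was not shifted upwards against the pooled other N > A cells. None of the 14 tested was higher and 3 were lower, with a median of -0.48. Emx1, which marks the dorsal and medial pallium, was at 169.7 (156 to 184) against 197 (191 to 203) CPM. Lhx2, a LIM homeobox gene of the cortex, was at 768 (739 to 798) against 591 (580.2 to 602) CPM. The lower genes in this comparison were Nr2f2, listed at 0 in the Tbr1+ neurons, Prox1 and Sp8. The list depended on the class compared. Against the Tbr1- Slc17a6+ neurons, 5 of 11 tested genes were higher and 1 was lower (median 1.20). Against Trp73+ neurons 0 of 12 were higher and 2 lower (median -0.35), and against Eomes-high cells 0 of 13 and 1 (median -0.38). Among 5 tested genes of a list for diencephalic neurons, Barhl2 was higher (123 against 56.96 CPM) and Tcf7l2 and Shox2 were lower, and 7 of the 16 listed genes, among them Otp and Foxd1, had no UMI in the Tbr1+ neurons.

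Genes of axons and synapses were more often higher than lower. On the cytoskeleton and axon list, 10 of 30 tested genes were higher and none was lower, with a median log2 ratio of 0.81. The neuronal intermediate filament gene Ina was at 1272 against 558 CPM, the axonal adhesion gene L1cam at 78.98 against 28.3 CPM, and the tubulin gene Tuba1a, the most abundant of the list, at 18448 against 10526 CPM. Since N counts related neuronal genes and was part of the selection, a higher level of such genes is near to what the selection used. Of 20 tested presynaptic genes, 6 were higher and 1 was lower, with a median of 0.84. The fusion protein gene Snap25 was at 73.4 against 30.4 CPM and the complexin gene Cplx1 at 29.1 against 6.58 CPM, whereas Nrxn3 was lower with 11.2 against 47.8 CPM.

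Receptors, channels and guidance molecules were also more often higher than lower. Of 11 tested glutamate and GABA receptor genes, 5 were higher and 0 lower with a median log2 ratio of 1.005, among them Gria2, Gria3 and the GABA-A receptor subunit gene Gabra2. Gabra2 was at 24.1 against 5.995 CPM. Among 15 tested ion channel genes, 6 were higher and 1 was lower (median 0.83), with the potassium channel gene Kcnh7 at 23.8 against 4.23 CPM. Of 29 tested axon guidance genes, 8 were higher and 0 lower (median 0.50). They included the ephrin receptor gene Epha5 (130.4 against 43.9 CPM), the semaphorin co-receptor gene Nrp2 (63.7 against 27.6 CPM) and Robo3, a receptor of commissural axons (30.2 against 14.9 CPM). The netrin receptor gene Dcc did not pass, with 34.6 against 40.1 CPM. In the migration list, 2 of 17 tested genes were higher, the neurotrophin gene Ntf3 (17.3 against 1.77 CPM) and its receptor gene Ntrk3 (12.04 against 5.94 CPM), 1 was lower, and the median was -0.14.

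The study concerned Dbx1, a homeobox transcription factor, and Pcdh8, a protocadherin. Cadherins and protocadherins were higher in 6 of 14 tested cases and lower in 0, with a median log2 ratio of 0.97. Pcdh9 was at 43.7 (37.01 to 51.4) against 17.5 (15.7 to 19.5) CPM and Cdh13 at 16.4 against 3.32 CPM. Pcdh8 itself was at 18.8 (14.5 to 24.00) against 15.3 (13.5 to 17.1) CPM, with overlapping intervals, and its ratio in the YFP cells was below 1 (0.773). Pcdh8 was highest in the Tbr1- Slc17a6+ neurons (46.8 (29.3 to 70.8) CPM) and Gad+ neurons (46.2 (37.9 to 55.7) CPM). Dbx1 was at 18.2 (13.96 to 23.3) against 36.2 (33.6 to 39.1) CPM, a ratio of 0.502, and was higher in Trp73+ neurons (96.4 (85.5 to 108) CPM) and Tbr1- Slc17a6+ neurons (74.4 (51.8 to 103) CPM). Nr4a2, a nuclear receptor of claustral and subplate neurons, was at 4.99 (2.91 to 7.99) against 4.50 (3.59 to 5.57) CPM, and Cdh2, the N-cadherin gene, at 197 against 129.6 CPM. Calb2, which encodes calretinin, was 3.002 times higher with 629 (603 to 656) against 209.6 (203 to 216) CPM, and Reln, which encodes Reelin, was at 84.3 (74.8 to 94.6) against 51.2 (48.03 to 54.6) CPM.

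Genes of GABAergic neurons, BPs and dividing cells, which the selection removed in part, were more often lower than higher in the Tbr1+ neurons. Of 15 tested GABAergic genes, 14 were lower, with a median log2 ratio of -4.47, and Maf was higher. Dlx1 was at 1.17 against 120.5 CPM, 103 times lower, and Dlx6os1, Sp9, Dlx5, Dlx2 and Nkx2-1 were among the 15 lowest genes. The LIM homeobox gene Isl1 was 21.6 times lower, with 8.81 against 189.8 CPM. Ccno, a cyclin gene known from multiciliated cells, was at 0.881 against 75.4 CPM, and at 445 CPM in Trp73+ neurons. The proneural genes Neurog1 and Neurog2 were at 16.7 and 49.9 CPM against 249.9 and 366 CPM, and others of the 15 were Rassf4, Fgf15 and the globin gene Hbb-bs. All 15 kept a ratio of 0.5 or below within the YFP cells.

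On the list of BP and newborn neuron genes, 11 of 16 tested genes were lower and 0 higher (median log2 ratio -1.79). On the cell cycle list, 12 of 18 were lower and 0 higher (median -1.61), with the topoisomerase gene Top2a at 33.8 against 119 CPM and the cycle inhibitor gene Cdkn1c at 508 against 2053 CPM. AP genes outside the selection were lower in 4 of 15 tested cases and higher in 0 (median -0.67). Early response genes that dissociation can switch on showed 1 of 10 tested genes higher, Egr1 (49.9 against 23.98 CPM), with a median of 0.36. Of the glutamate and monoamine transmission genes, 7 were tested and 1, Slc18a2, was lower. Of 8 tested preplate and subplate genes, 3 were higher (Nxph4, Etv1 and Cdh10) and 1 was lower (St18), and 5 of the 18 listed had no UMI in the Tbr1+ neurons.

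Markers of blood were lower, with 5 of 7 tested genes of the blood, vessel and mesenchyme list below the threshold (median log2 ratio -1.46) and a summed level of 4762 against 14539 CPM. The embryonic globin gene Hbb-y was the most abundant, at 2930 against 9133 CPM. A single Tbr1+ neuron with 36410 UMIs had 44.7% of its UMIs from globin genes and held 89.5% of all globin UMIs of the set. The upper quartile of this share over the Tbr1+ neurons was 0.0736%. Among the other N > A cells, 18 had a globin share of at least 5%. The defining endothelial markers Cldn5, Kdr and Cdh5 were at 0.294 CPM each, which is 1 UMI, Pecam1 was at 9.69 against 5.73 CPM, and Csf1r and Rgs5 were listed at 0. Without the cells of at least 5% globin, 368 genes were higher and 568 lower, and the ratio was 2.63 for Nxph4 and 2.70 for Etv1.

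Against the 46 Tbr1- Slc17a6+ neurons, which also make glutamate transporter, 238 of 7071 tested genes were higher in the Tbr1+ neurons (3.37%) and 224 were lower (3.17%). Calb2 was 74.01 times and Neurod2 46.4 times higher, each with 8.50 CPM in the Tbr1- cells. Bcl11b was 18.7 times higher and Homer2, a postsynaptic scaffold gene, 17.2 times. Neurod6, the transcription factor gene Barhl2 and the axon guidance receptor gene Robo2 each had 1 UMI in the Tbr1- cells, with an interval of 0.0538 to 11.8 CPM, against 371, 123 and 51.1 CPM in the Tbr1+ neurons. Etv1 and Nfix had 2 UMIs there and Pcp4 had 3. Samd3 had 0, and at 218 CPM in the Tbr1+ neurons was at least 34.2-fold higher when the 0 is taken as 3 counts over the group. The other genes of the 15 highest were C130071C03Rik, Nrcam, Ndufa4l2 and Gm17750, each with 1 UMI in the Tbr1- cells.

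The Tbr1- Slc17a6+ neurons were instead high in Isl1, at 1078 CPM, which was 122 times lower in the Tbr1+ neurons. The retinoic acid binding protein gene Crabp1 was 18.5 times lower (46.4 against 859 CPM) and the transcription factor gene Onecut2 12.2 times (84.3 against 1024 CPM). The others among the 10 lowest were Rassf4, 3632451O06Rik, Syt13, Lhfpl2, Ppp1r17, Dbpht2 and Pnoc, the nociceptin precursor, between 12.7 and 31.9 times lower. Among early projection neuron factors, 16 of 24 tested genes were higher and 1 was lower (median log2 ratio 1.79 against 0.02 over all tested genes). Of 15 tested septal and medial genes, 6 were lower and 2 were higher (median -0.86). Synaptic and axonal lists showed no such shift, with medians of -0.03 and 0.13.

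Against the 229 Trp73+ neurons, 208 of 8480 tested genes were higher (2.45%) and 434 were lower (5.12%). Neurod6 was 10.6 times higher, Nxph4 3.60 times, Bcl11b 3.46 times and Neurod2 2.91 times, and cadherins and protocadherins were higher in 6 of 10 tested cases (median log2 ratio 1.63). Of 9 tested Cajal-Retzius genes, 2 were lower and 1 was higher (median -0.96), and Reln was at 84.3 (74.8 to 94.6) against 166 (152 to 181) CPM. Calb2, which is used as a marker of Cajal-Retzius cells, was higher in the Tbr1+ neurons, at 629 (603 to 656) against 243 (226 to 262) CPM.

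Against the 645 Eomes-high cells, 346 of 9604 tested genes were higher (3.6%) and 344 were lower (3.58%). Here no marker of pallial glutamatergic neurons passed in either direction among 12 tested, with a median log2 ratio of 0.42. Among early projection neuron factors, 7 of 27 tested genes were higher and 0 lower (median 0.48). The cytoskeleton and axon list was higher in 11 of 29 tested genes (median 0.80) and the ion channel list in 7 of 13 (median 1.003). The BP and newborn neuron list was lower in 11 of 16 (median -1.78), and Eomes itself was part of both selections. Emx1 was lower in the Tbr1+ neurons, at 169.7 (156 to 184) against 351 (338 to 364) CPM.

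The Tbr1+ neurons were spread along the axis from progenitor to neuron, measured as log2((N + 1)/(A + 1)), with a lowest value of 0.0740, a median of 3.77 and a highest of 6.67. They were divided along it into parts of 86, 87 and 87 cells. Ina was at 580.2, 1417 and 1808 CPM from the lowest to the highest part, and Nnat, an imprinted neuronal gene, at 5953, 10046 and 11996 CPM. Calb2 was at 248, 663 and 972 CPM, Etv1 at 156, 281 and 431 CPM, and Foxp2 at 33.9, 54.9 and 203 CPM. All 5 genes were higher in the highest part of the axis than in the lowest.

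Other neuronal factors went the other way along the axis. Neurod6 was at 555, 373 and 188 CPM, Neurod2 at 553, 402 and 231 CPM, and Nfib at 742, 409.7 and 186 CPM. The chromatin protein gene Hmgb2, which is high in dividing cells, was at 662, 201 and 160.1 CPM. Synaptic genes differed little between the parts, as Gria2 was at 104, 97.6 and 113 CPM and Rab3a, a vesicle protein gene, at 273, 286 and 298 CPM.

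How unevenly a gene was spread among the cells was measured by its Fano factor, the variance over the mean of its UMIs, in the 239 Tbr1+ neurons thinned to 7500 UMIs. The median over 2394 genes was 1.07. Among the 16 genes with the highest values, Nnat had 26.3, the cell cycle inhibitor gene Cdkn1a 15.5, the noncoding RNA gene Meg3 11.2, Calb2 10.9 and the long noncoding RNA gene D930028M14Rik 10.03. Further down were Hmgb2 with 8.998, Nfib with 8.84, Neurod6 with 8.18 and Pcp4 with 7.18. Calb2 was found in 140 of these cells with a highest value of 36 UMIs, and Neurod6 in 98 with a highest value of 22. Across the 239 cells, which come from 1 library and were brought to the same depth, Neurod2 and Neurod6 had a Pearson correlation of 0.87, Nfib and Nfix of 0.85 and Neurod6 and Nfib of 0.85. Nfib and Meg3 had -0.71, and Onecut2 and D930028M14Rik 0.77. These values describe the cells and are not independent tests.

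From these distributions the Tbr1+ neurons were divided by limits that were set after the values had been seen. Neurod-high cells had at least 3 UMIs of Neurod2 and Neurod6 together and fewer than 3 of Onecut2, and Onecut2-high cells the reverse. There were 106 Neurod-high cells (40.8%), 28 Onecut2-high cells (10.8%) and 125 cells with neither (48.1%), and 1 cell, with 29801 UMIs and an axis value of 0.172, had both. Median depths were 14164, 12250 and 10638 UMIs in the first 3 sets. With limits of 2 or of 5 UMIs in place of 3, there were 120 or 98 Neurod-high and 35 or 23 Onecut2-high cells.

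**Figure D3:**
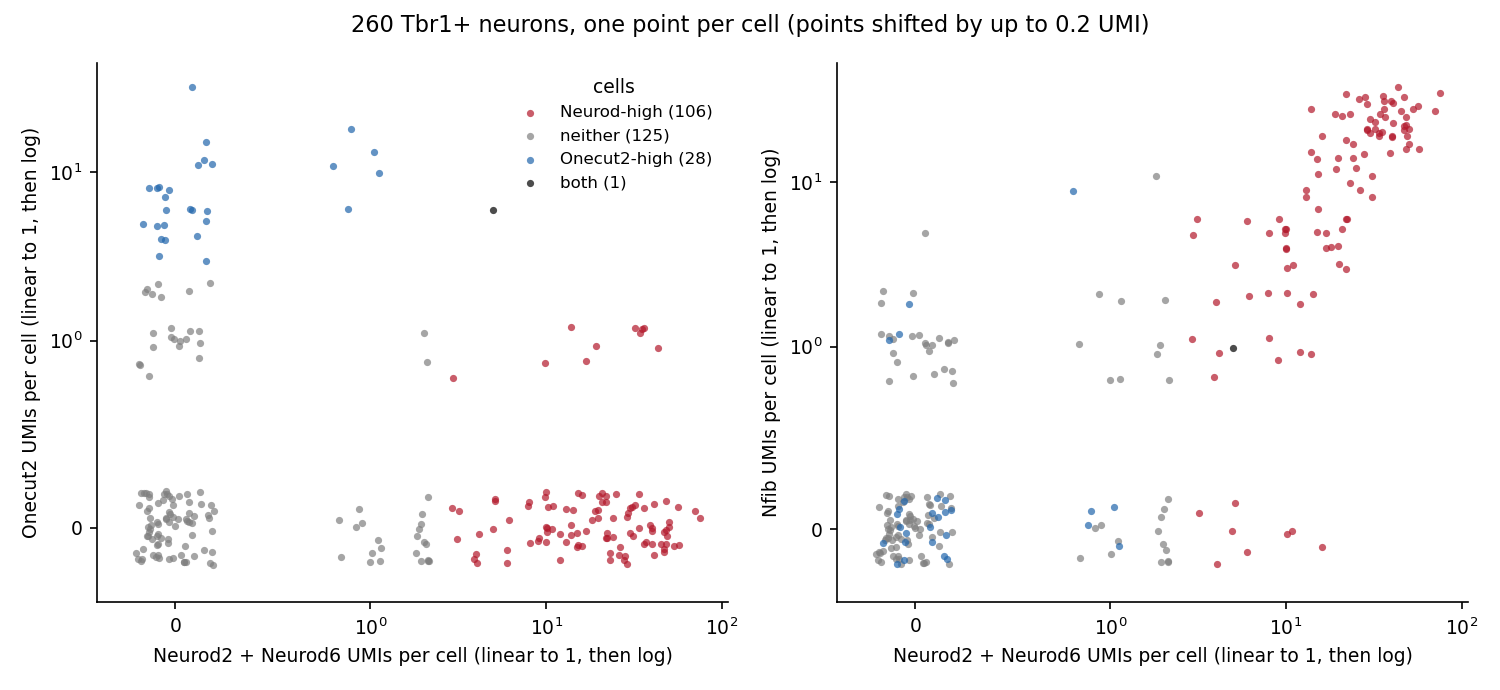
Each point is 1 of the 260 Tbr1+ neurons, with the UMIs of Neurod2 and Neurod6 across and those of Onecut2 (left) or Nfib (right) upwards, on axes that are linear to 1 and logarithmic above. Cells high in Neurod2 and Neurod6 had 0 or 1 Onecut2 UMIs with a single exception, and Nfib was highest in the same cells.

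Nuclear factor I genes and several projection neuron genes were high in the Neurod-high cells and low in the others. Between Neurod-high cells and cells with neither, 199 of 6255 tested genes were higher in the former (3.18%) and 136 were lower (2.17%), and the genes that defined the sets were left out. Nfib was at 941 (893 to 991) CPM in Neurod-high cells, 37.8 (28.4 to 49.1) CPM in cells with neither and 33.9 (18.1 to 58.1) CPM in Onecut2-high cells. Nfix was at 361 (331 to 392), 4.81 and 5.22 CPM, Pcp4 at 508 (473 to 545), 12.4 and 20.9 CPM, and Bcl11b at 666 (626 to 708), 127 and 23.5 CPM in the same order. Among the 20 leading genes of the Neurod-high cells were also Nfia, Bhlhe22, Prdm8, Zbtb18, Rprm, Mef2c, Sez6, Rwdd3 and Ntf3, which had 0 UMIs in the cells with neither and in the Onecut2-high cells. Gm11266 was a further one, and it is 1 of 5 annotated genes that overlap Nfib, so that reads of the overlap may have been split between them.

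Because Nfix, which was high together with Neurod2, can be read beside the motif that NeuroD factors are known to bind, the 250 bases before a RefSeq transcript start (GRCm38.p6) are shown for both genes. Capitals mark CATCTG or its reverse complement CAGATG, read on both strands. The window of Neurod2 is chr11:98329646-98329895 on the minus strand, with a match that begins 118 bases before the start, and that of Nfix is chr8:84772876-84773125 on the minus strand, 1 of 4 windows of that gene, with a match at 34. These windows were chosen because they hold a match. The other 3 windows of Nfix held none, nor did the single windows of Neurod6 and Tbr1, and 1 of 3 windows of Mef2c held one.
Neurod2: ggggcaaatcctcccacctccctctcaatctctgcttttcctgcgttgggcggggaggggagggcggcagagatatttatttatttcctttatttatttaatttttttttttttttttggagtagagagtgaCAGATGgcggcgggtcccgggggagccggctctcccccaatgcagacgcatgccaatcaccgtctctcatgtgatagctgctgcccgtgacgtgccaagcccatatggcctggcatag
Nfix: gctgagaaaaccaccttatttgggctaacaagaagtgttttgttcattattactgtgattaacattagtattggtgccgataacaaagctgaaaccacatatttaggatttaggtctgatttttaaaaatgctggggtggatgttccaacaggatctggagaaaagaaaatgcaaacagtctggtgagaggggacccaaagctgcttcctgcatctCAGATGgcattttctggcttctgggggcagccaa
The motif was found in 14.4% of 32851 such windows, or in 16.3% of 27025 genes. Of the 20 leading genes of the Neurod-high cells, 14 matched a RefSeq entry and 5 of these (35.7%) held it, namely Mef2c, Nfia, Nfix, Ntf3 and Zbtb18. A gene was counted when any of its windows held the motif, so that genes with more windows were more easily counted. These 14 genes had 25 windows, and 9 of the windows (36%) held it. The window of Nfia lies at a RefSeq start 191 kb before the gene as GENCODE M21 places it. The motif was held by 2 of 14 leading genes of the Onecut2-high cells (14.3%) and by 1 of 13 of the cells with neither (7.69%). By windows, these were 2 of 18 and 1 of 21. The related letters CAGCTG, which are their own reverse complement, were in 14.7% of all genes and in 4 of the 14 of the Neurod-high cells (28.6%). These are matches of letters, and the windows were not measured for binding.

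The cells with neither set of genes, the most numerous, had Nxph4 at the level of the Neurod-high cells. They had Etv1 at a higher level, with intervals apart, and differed in other factors. Nxph4 was at 243 (219 to 269) CPM in Neurod-high cells and 244 (219.7 to 271) CPM in cells with neither, and Etv1 at 284 (258 to 312) and 370.0 (339 to 403) CPM. Foxp2 was at 198 (176 to 223) CPM in cells with neither, against 24.7 CPM in Neurod-high and 10.4 CPM in Onecut2-high cells. The homeobox genes Pbx3 (71.4 against 4.56 and 23.5 CPM) and Meis2 (101 against 39.7 and 39.2 CPM) followed it. Barhl2 was at 188 CPM against 87.2 and 28.7 CPM, and Ebf1, a factor of early postmitotic neurons, at 476 against 284 and 28.7 CPM. Within the YFP cells, the ratio of cells with neither to Neurod-high cells was 4.74 for Foxp2 and 7.20 for Meis2, but 1.39 for Barhl2 and 0.994 for Ebf1, so that Ebf1 was at a similar level in both there. The carbonic anhydrase gene Car2 headed this set by ratio, but 89 of its 98 UMIs came from the single globin-rich cell.

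The 28 Onecut2-high cells were low in some pallial markers and not in others. Emx1 was at 18.3 (7.35 to 37.7) CPM against 259.7 (235 to 286) CPM in Neurod-high cells, Etv1 at 23.5 (10.7 to 44.6) CPM and Calb2 at 80.96 (55.01 to 115) CPM against 826 CPM. Emx2, a homeobox gene related to Emx1, was at 264 (215 to 320.5) against 143 (125 to 163) CPM, and the LIM homeobox genes Lhx2 at 517 (448 to 594) against 758 (715 to 803) CPM and Lhx9 at 402 (341 to 471) against 213 (191 to 238) CPM. All 28 cells held an Lhx2 UMI and 27 an Lhx9 UMI. The Onecut2-high cells were led by Crabp1 with 360.4 (303 to 426) CPM, D930028M14Rik with 1047 (947 to 1155) CPM, and the spondin gene Spon1 with 165 (126 to 210.5) CPM, all at or under 33.6 CPM in the other sets. Crabp1 was found in 13 of the 28 cells, and 5 cells held 110 of its 138 UMIs, whereas D930028M14Rik was found in 26 cells and Spon1 in 17. Crabp1 and 3632451O06Rik were also high in the Tbr1- Slc17a6+ neurons. Dbx1 was at 109.7 (79.05 to 148) CPM, against 13.04 CPM in cells with neither and 1 UMI in all Neurod-high cells, and Six3, Otx2, Zic5, Robo3 and Dlk1 were further leading genes. Zic1, a factor of medial territories, was at 778, 612 and 233 CPM in Onecut2-high cells, cells with neither and Neurod-high cells, and Meg3 at 3821, 1770 and 606 CPM. Nxph4 was at 159 (122 to 205) CPM and Tbr1 at 447 (382 to 519) CPM. D930028M14Rik overlaps Pou2f2 on the other strand, so that its count depends on how strand was used.

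**Figure D4:**
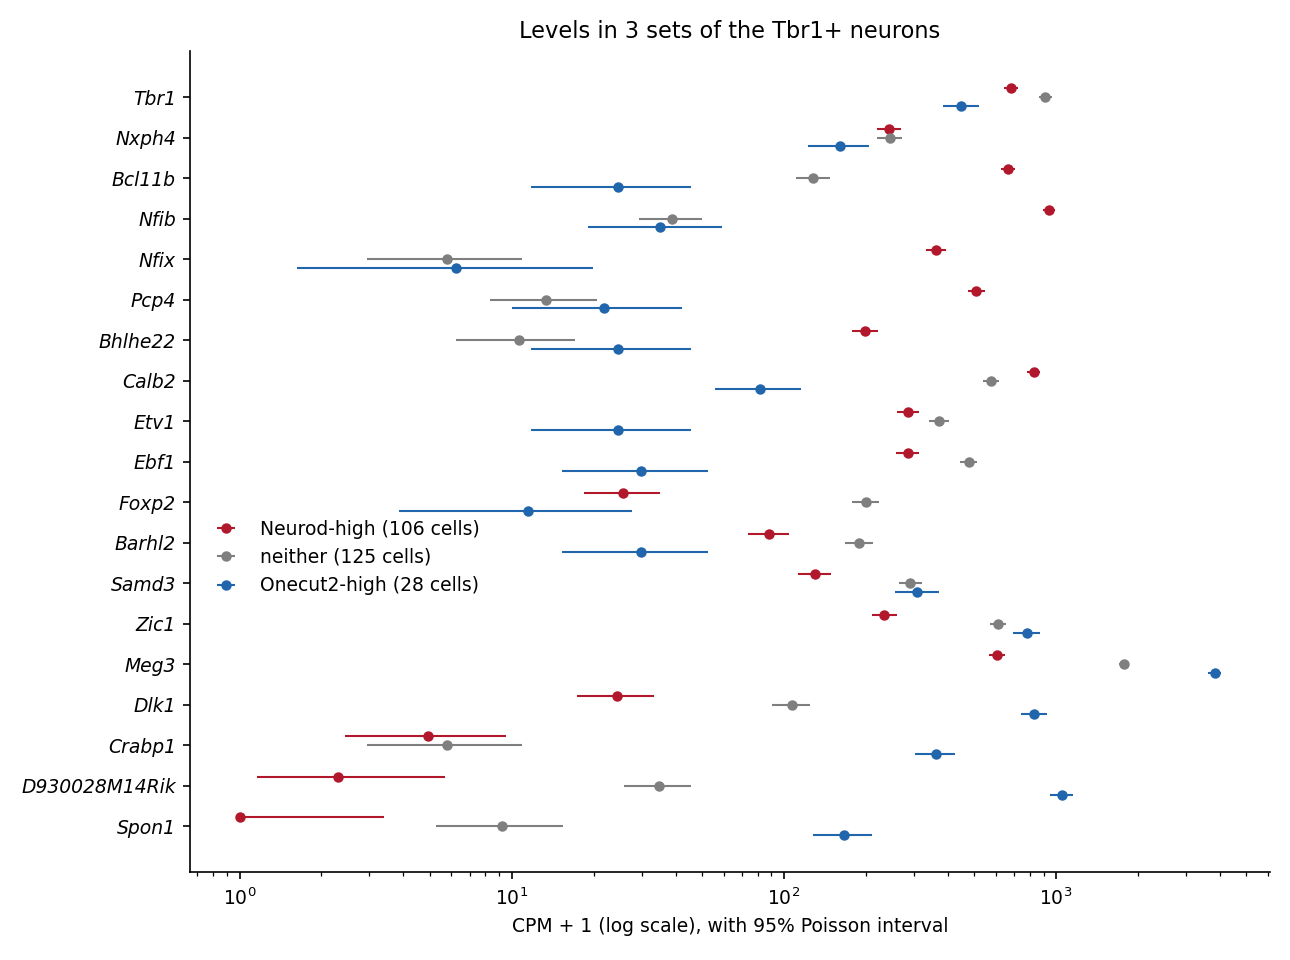
Levels of 19 genes in the 106 Neurod-high, 125 neither and 28 Onecut2-high Tbr1+ neurons are plotted as CPM + 1 on a log axis with the exact Poisson 95% interval. Nfib, Nfix, Pcp4 and Bhlhe22 stand apart in the Neurod-high cells, Foxp2 in the cells with neither, and Crabp1, D930028M14Rik and Spon1 in the Onecut2-high cells.

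The sets differed in their reporters. At least 3 YFP UMIs were found in 32 of 106 Neurod-high cells (30.2%, 21.7 to 39.9%), 70 of 125 cells with neither (56.0%, 46.8 to 64.9%) and 15 of 28 Onecut2-high cells (53.6%, 33.9 to 72.5%). The Neurod-high cells thus held fewer cells marked as E11.5 than the cells with neither, with intervals apart. Within the YFP cells, Nfib was 7.86 times and Nfix 9.13 times higher in Neurod-high cells than in cells with neither, against 24.9 and 75.04 times over all cells. For Pcp4 the ratio was 15.7. Of the 20 leading genes of the Neurod-high cells, 10 had intervals apart from those of the cells with neither in the YFP cells and 10 had intervals that overlapped. The latter included Prdm8, Sez6, Zbtb18, Gm11266, Rprm with 9 against 11 UMIs and Mef2c with 1 against 8. The 20 genes had been ranked on cells that include the YFP cells. No share over all tested genes is set beside these counts, which describe the 20 genes only.

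Among the Neurod-high cells, the 32 with at least 3 YFP UMIs were compared with the 59 without a YFP UMI, 15 of which held a tdTomato UMI. Rprm, a p53 target gene, was at 19.3 (8.83 to 36.7) CPM in the YFP cells and 463 (418 to 511) CPM in the cells without. Nfix was at 53.7 (34.7 to 79.2) and 514 (467 to 565) CPM, Nfib at 333 (282 to 389) and 1245 (1172 to 1322) CPM, and Mef2c at 2.15 (0.0543 to 11.96) and 194 (165 to 225) CPM. All were lower in the YFP cells, as were Nfia, Zeb2, which encodes a zinc finger repressor, Epha4, and Sox5, a factor of deep layer neurons, with 17.2 (7.41 to 33.8) against 115 (93.8 to 141) CPM. Several genes also found in the cells with neither were higher in the YFP cells. Etv1 was at 575 (508 to 648) and 135 (112 to 162) CPM, Calb2 at 1466 (1358 to 1580) and 486 (441 to 535) CPM, and Samd3 at 262 (217 to 313) and 52.5 (38.3 to 70.2) CPM. Ebf2, Barhl2, Tfap2e and Slc17a6 went with these, whereas Bcl11b was at 627 (557 to 703) and 686 (631 to 743) CPM, with overlapping intervals.

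**Figure D5:**
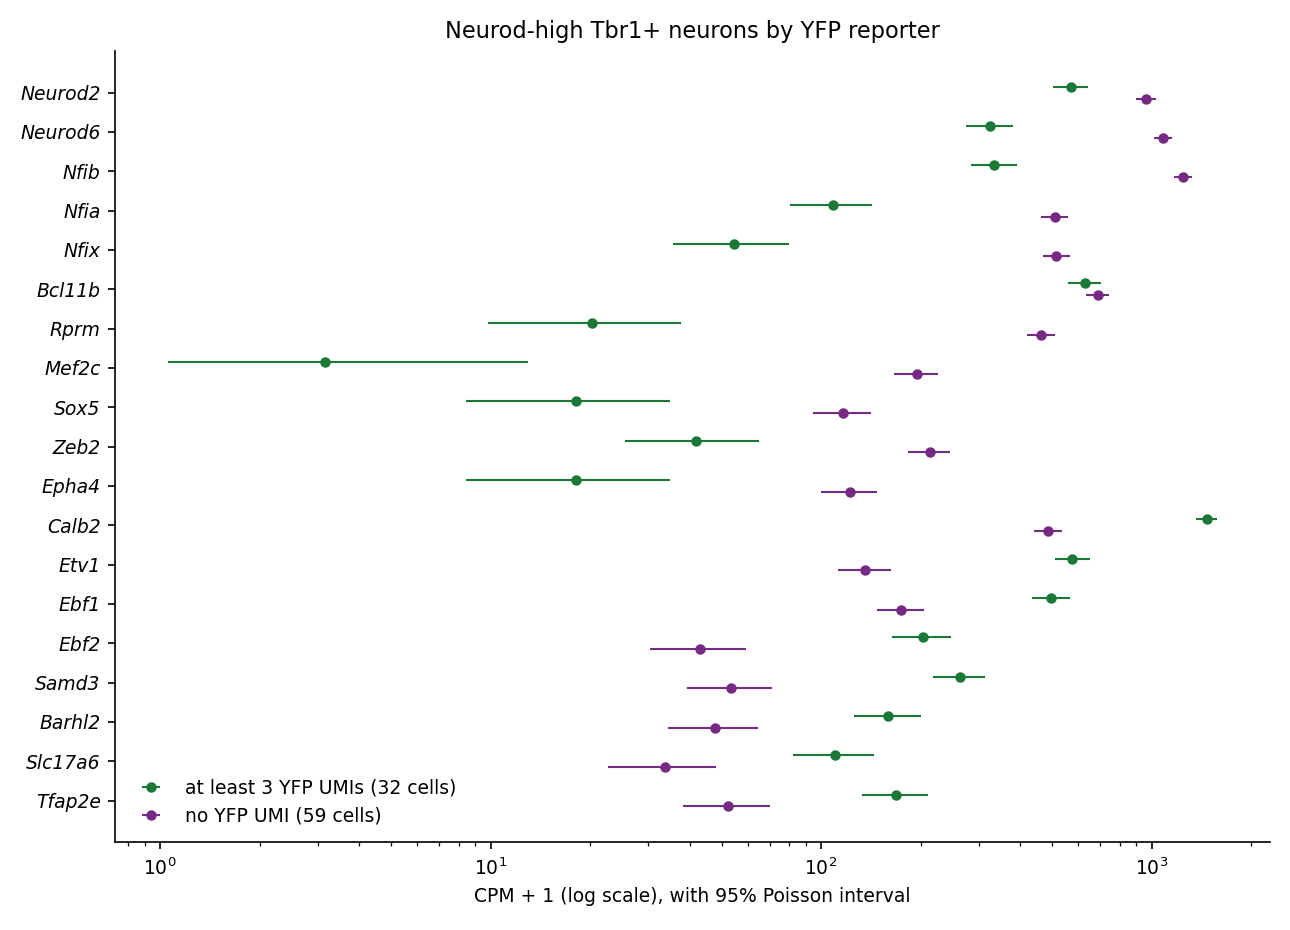
Levels of 19 genes are plotted as CPM + 1 on a log axis with the exact Poisson 95% interval in the Neurod-high Tbr1+ neurons with at least 3 YFP UMIs (32 cells) and without a YFP UMI (59 cells). Genes from Neurod2 to Epha4 are lower in the YFP cells, with Bcl11b alone overlapping, and genes from Calb2 to Tfap2e are higher.

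A tdTomato UMI was found in 37 of the 260 Tbr1+ neurons (14.2%, 10.2 to 19.1%). The share was 17.4% of Tbr1- Slc17a6+ neurons (7.82 to 31.4%), 9.61% of Trp73+ neurons (6.12 to 14.2%), 8.22% of Eomes-high cells (6.22 to 10.6%) and 4.12% of Gad+ neurons (1.80 to 7.96%). Over all other N > A cells it was 8.59% (7.24 to 10.1%), whose interval is just apart from that of the Tbr1+ neurons. The intervals overlapped at equal depth, with 10.9% (7.23 to 15.5%) against 6.27% (5.06 to 7.66%) after thinning, and with a limit of 2 tdTomato UMIs, with 5.38% (2.97 to 8.87%) against 3.81% (2.91 to 4.89%). The E11.5 embryos carry no tdTomato allele, so that their YFP cells (at least 3 YFP UMIs) give the background of free RNA and mixed droplets, and 41 of 3226 such cells held a tdTomato UMI (1.27%, 0.914 to 1.72%), at a median depth of 13705 UMIs. Among the 104 Tbr1+ neurons without a YFP UMI, with a median depth of 12525 UMIs, the share was 26.9% (18.7 to 36.5%), and it was 23.1% (19.2 to 27.4%) among the 433 other N > A cells without a YFP UMI, so that the intervals overlapped. It was 15 of 59 in Neurod-high cells (25.4%, 14.98 to 38.4%), 6 of 36 in cells with neither (16.7%, 6.37 to 32.8%) and 6 of 8 in Onecut2-high cells (75%, 34.9 to 96.8%). Over all cells of these sets, with or without YFP, it was 16.0%, 9.6% and 25% in the same order. With at least 2 tdTomato UMIs, it was 1.89% (0.229 to 6.65%), 5.6% (2.28 to 11.2%) and 14.3% (4.03 to 32.7%). The order of Neurod-high cells and cells with neither thus depended on the limit, and their intervals overlapped at both limits.

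The same limits applied to the telencephalic vesicle gave 288 Tbr1+ neurons among 11414 kept cells, beside 2292 other N > A cells. Their median depth was 7456.5 UMIs and their median Tbr1 count 3 UMIs. Within that library 339 of 12416 tested genes were higher than in the other N > A cells (2.73%) and 502 were lower (4.04%). Only ratios within a library are set side by side, since the libraries differ in kit version and in the version of the counting software. Nxph4 was 3.12 times and Etv1 1.83 times higher in the vesicle, and Calb2 3.47 times. Of the 25 genes with the highest ratio in the septal explants, 24 were listed in the vesicle, and 23 lay on the same side and 15 had a ratio of at least 2. Pcp4 went the other way, with a ratio of 0.214, and Bcl11b had 0.765. Of the 15 lowest genes, 15 lay on the same side and 14 had a ratio of 0.5 or less.

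Over the 10561 genes tested in both libraries, 124 of 361 genes higher in the septal explants were also higher in the vesicle, which is 34.3% of the former and 55.6% of the 223 of the latter. Of the 361, 319 (88.4%) lay on the higher side in the vesicle, where 44.6% of all genes did. For lower genes, 241 were shared, 46.7% of 516 and 62.3% of 387, and 482 (93.4%) lay on the lower side, where 55.4% of all genes did. The log2 ratios of 10544 genes had a Pearson correlation of 0.66 between the libraries, which is across genes that are not independent replicates. The inner division differed: by the same limits, 11 of the 288 vesicle cells were Neurod-high (3.82%), 22 Onecut2-high (7.64%) and 255 had neither (88.5%). Of the septal Tbr1+ neurons, 40.6% (34.3 to 47.1%) were Neurod-high after thinning to 7500 UMIs, and 27.4% (19.5 to 36.4%) of those with at least 3 YFP UMIs. The vesicle cells held fewer UMIs and were not thinned, and depth, stage, dissection and kit cannot be told apart between the libraries.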

How the data were processed

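Explants encompassing the septum and whole telencephalic vesicles were dissociated and run on droplet kits of 10x Genomics. The values are raw counts: the authors deposited the UMIs per gene and cell barcode for each library, made per the labels with Cell Ranger 2.1.1 (septal explants) and 7.1.0 (vesicle) and mm10, to which the reporter sequences had been added. Whether intronic reads were counted in the vesicle is not given in the sources used here, so that levels were not compared between libraries.

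Cells were selected as described in the report. UMIs were summed over the cells of a class and scaled to the total (CPM). Genes of the selection, mitochondrial, ribosomal and sex-linked genes and added sequences were left out of gene comparisons. Genes were named by rank: the 25 highest and 15 lowest ratios against the other N > A cells, and the 15 highest and 10 lowest against Tbr1- Slc17a6+ neurons, with intervals apart and at least 30 CPM in the higher group. Other named genes come from 21 lists with 398 genes, the markers of the set, the 20 leading genes of each inner set, or were picked after their values were seen. A few genes that these rules name are not reported here. The members, classes and lists were chosen with earlier results of these data known.

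Doublets were not removed in the reported values. Scrublet (scanpy 1.11.5) marked 5 barcodes (0.0858%), too few for its threshold to be trusted. The comparison was tested on simulated counts, where 47 of 50 genes with a 3-fold change and 40 of 10742 unchanged genes (0.372%) passed. These were Poisson counts of summed profiles, without variation between cells or embryos. The shares therefore check the calculation and do not give the rate of false passes in the real cells. Alternatives were other limits for mitochondrial share, Tbr1, N and A, gene filter, fold and scaling, thinned cells, cells weighted equally, removal of doublets or globin-rich cells, and YFP cells only, the last few being added after the data had been seen. Values were computed with pandas 2.3.3, numpy 2.4.6 and scipy 1.17.1 under Python 3.11.15, and figures drawn with matplotlib 3.10.9. RefSeq promoters were matched by gene symbol.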

Additional observations from a re-analysis of the deposited data

How the results depend on the processing

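Of 68 alternative values, 58 stayed within the limits set for an unchanged result and 10 moved. A change of direction was defined only for the ratios of Nxph4 and Etv1, and neither ratio changed direction. The number of Tbr1+ neurons ranged from 241 (at least 3 Tbr1 UMIs) to 301 (at least 1). The ratio of Nxph4 was 2.36 with at least 1 Tbr1 UMI, 2.40 with N over 2 times A and 2.96 as a mean of per-cell CPM. The ratio of Etv1 was 2.46 with at least 1 Tbr1 UMI and 3.80 in cells with at least 3 YFP UMIs. At a fold of 1.5, 959 genes were higher and 889 lower, and a limit of at least 2 tdTomato UMIs left a share of 5.38%. In YFP cells, chosen after seeing the data, 140 genes were higher than in Tbr1- Slc17a6+ neurons, where fewer cells and genes enter, and 27.4% of the Tbr1+ neurons were Neurod-high. Removing the 277 barcodes with the highest doublet scores, 17 of them Tbr1+ neurons, left 405 higher and 653 lower genes, and removing cells with a globin share of at least 5% left 368 and 568. No paired analysis was possible because each tissue is 1 library without replicates, and no result comes from a test. Depth sets the limit for genes of low level: at the median depth of the Tbr1+ neurons (12145.5 UMIs), a gene at 82.3 CPM gives about 1 UMI per cell.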

Other observations

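Gm10116 (ENSMUSG00000062382), named Ftl1-ps1 in GENCODE M21 and lying on the plus strand of chr13:74399694-74407346, and Ftl1, the ferritin light chain gene, are near-identical copies, so that the split of reads between them is uncertain. Gm10116 was among the most unevenly spread genes in the Tbr1+ neurons, with a Fano factor of 12.3. Its share of the UMIs of both genes differed by reporter, with ranges that overlapped. Over all kept cells, the median share was 1.30% in 3185 cells with at least 3 YFP UMIs and no tdTomato UMI, where it ranged from 0 to 51.6% and was at least 25% in 42 cells. It was 47.2% in 73 cells with at least 3 tdTomato UMIs and no YFP UMI, where it ranged from 27.7 to 65.9%. In the Tbr1+ neurons, the share was at least 25% in 103 of 260 cells (39.6%), against 26.0% of the other N > A cells. The median was 41.6% in Neurod-high cells, 1.92% in cells with neither and 1.77% in Onecut2-high cells. In the telencephalic vesicle, the median was 1.63% and 27.9% of the cells reached 25%.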
